A study of Mus musculus with 9 samples.

Results

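The collagens examined here are the 36 genes of the array whose symbol reads Col, a number, a and a number, out of 12393 genes that could be tested. They were chosen by symbol alone and were read by 58 probe sets, and for each gene the probe set brightest on average over the 9 arrays (mean log2) was kept. The arrays held total RNA from 6 mouse alveolar rhabdomyosarcomas and from 3 samples of wild-type skeletal muscle, the labelled control. Alveolar rhabdomyosarcoma is a childhood sarcoma in which genes of the muscle lineage are active. Genotype, strain, age and treatment of the tumours and the site of the muscles are not stated in the labels. Nor do they say whether samples came from separate animals, so the p-values rest on a spread between samples that may be technical. Values are MAS5 signals, a linear brightness in arbitrary units, after each array was multiplied to 1 common trimmed mean.

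Collagens are extracellular proteins whose chains wind around each other in a triple helix. Fibrillar collagens such as types I, III and V assemble into the fibres of connective tissue. Type IV collagen forms the sheet-like network of basement membranes, which wrap every muscle fibre and line blood vessels. Other types link fibrils to each other, to basement membranes or to cells, or span the cell membrane. In muscle much of the fibrillar collagen is made by fibroblasts of the connective tissue between fibres. In a bulk sample, fewer cells of a type and less RNA per cell cannot be told apart. The 36 genes comprised 9 fibrillar chains, 6 type IV chains and 21 others.

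Few collagen genes separated tumours from muscles. Col18a1, which encodes the precursor of the anti-angiogenic fragment endostatin, was 4.13-fold higher in tumours on the scale of log2(signal + 16). Col22a1, which encodes a collagen of the myotendinous junction, was lower by a log2 difference of -1.76, at signals that may be background. The other 34 did not pass an adjusted p under 0.05 (limma, Benjamini-Hochberg over all genes). The 2 calls make 5.56% of the collagens, whereas 17.8% of all genes were called, 8.66% as higher and 9.09% as lower. At an unadjusted p under 0.05, 8 collagens (22.2%) and 29.1% of all genes passed. Tumour and muscle signals did not overlap for 4 collagens, Col18a1 and Col16a1 above and Col22a1 and Col4a2 below muscle, while 21.6% of all genes showed no overlap. The median absolute log2 difference was 0.46 over the collagens and 0.58 over all genes, with median standard errors of 0.52 and 0.46. Of the 36, 21 had a group mean above 268, the median signal of all genes and arrays. Among genes that bright 27.2% were called, and of the 21 collagens 1, Col18a1. Of 19 collagen genes with several probe sets, 8 had probe sets whose differences took opposite signs. Detection calls were not used here, so that signals of the remaining 15 may be background.

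**Figure D1:**
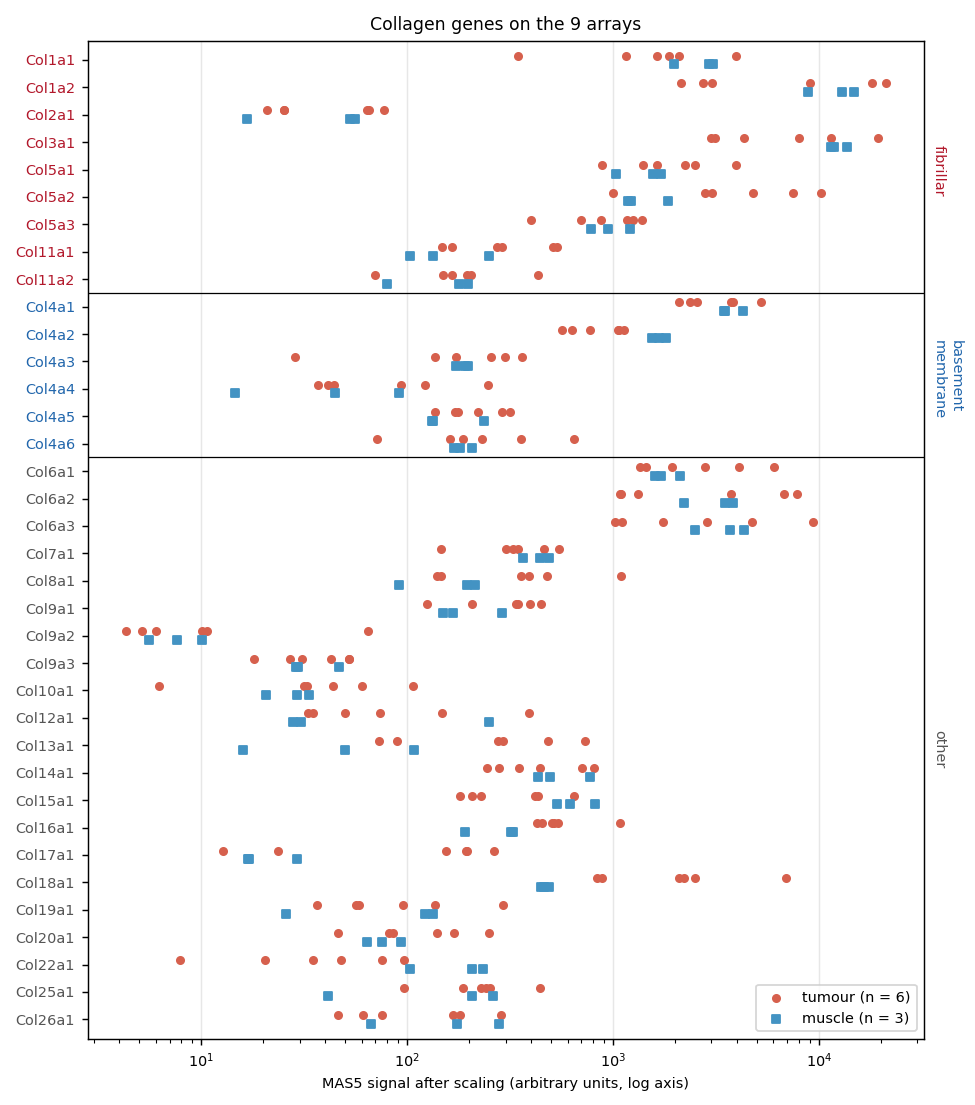
MAS5 signal (log axis) of the 36 collagen genes, with 6 tumours as circles above 3 muscles as squares in each row and with the classes separated by lines. Tumour and muscle points overlap in all rows except those of Col4a2, Col16a1, Col18a1 and Col22a1.

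These counts depended on the scaling and on single arrays. Muscle 1 and muscle 3 were deposited on a lower scale. Without rescaling them 7 collagens were called higher and none lower, while over all genes 2373 were called higher and 369 lower. The median log2 difference of all genes was then 0.79 in place of 0.10. On tumours 1 and 4 the added hybridisation control cre read 32500 and 26648 (5345 to 13348 on the other arrays). Without these 2 tumours 2 collagens were higher and 2 lower, and over all genes 1464 were higher and 1417 lower. Without muscles 2 and 3, whose 3' to 5' Gapdh ratios of 57.17 and 33.0 exceeded the 1.68 to 9.39 of the other arrays, none was called by limma, and over all genes 73 were called higher and 100 lower. That fit has 1 muscle, assumed to vary like the tumours, so that fewer calls follow from its size and show nothing about the Gapdh ratio. The 3' to 5' Actb ratios of muscles 2 and 3, 4.06 and 4.35, lay within the 1.87 to 6.78 of the other arrays. When 1 array was left out, 0 to 3 collagens were higher and 0 to 2 lower, and over all genes 503 to 1421 and 607 to 1348. Collagens called higher numbered 3 without tumour 3, 2 without tumour 1 or 2, and 0 without any 1 muscle. Those lower numbered 2 without tumour 1, 2 or 4 and 0 without tumour 3, tumour 6, muscle 2 or muscle 3.

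**Figure D2:**
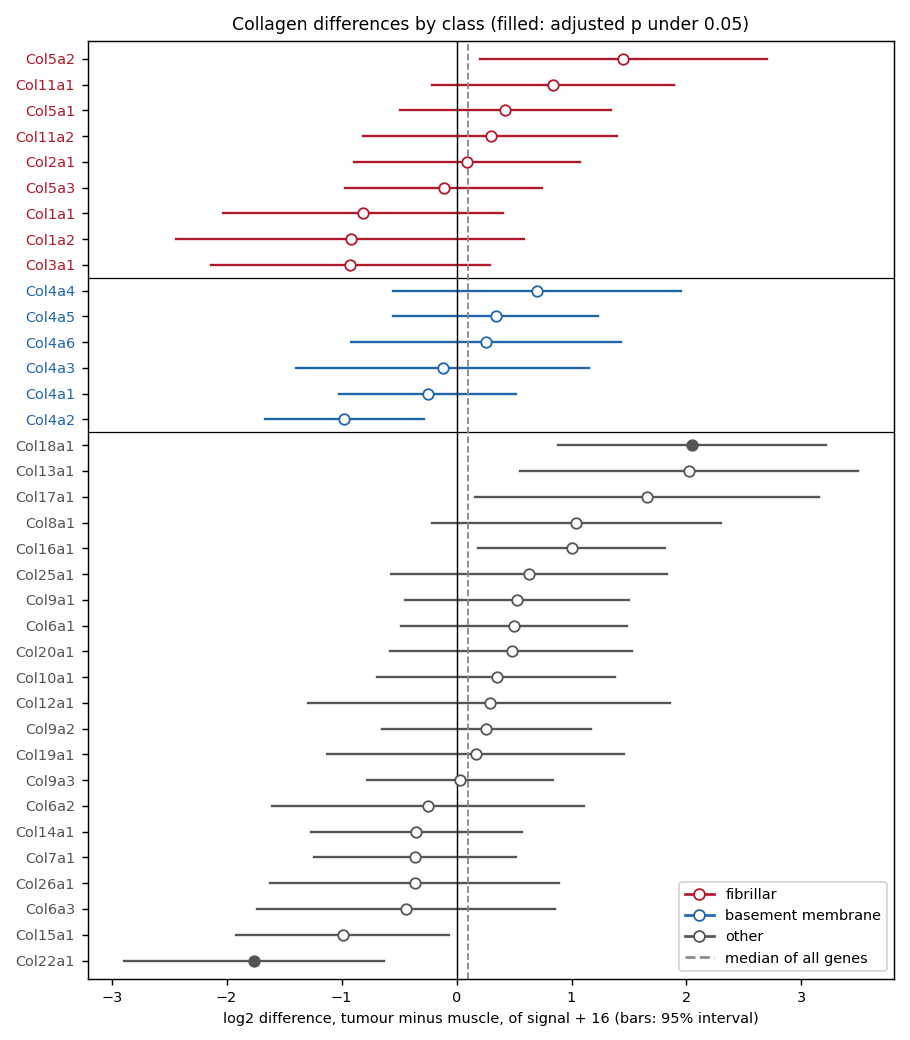
Log2 difference of signal + 16, tumour minus muscle, with its 95% interval for each collagen gene (9 fibrillar, 6 basement membrane, 21 other). Filled points, Col18a1 and Col22a1, passed an adjusted p under 0.05; the dashed line is the median of all genes, 0.10.

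The starts of 2 collagen loci are shown before their values. Col18a1 is shown because it was the collagen called higher, and it has 2 annotated starts 52.8 kb apart. The 250 bases before each start are given 5′ to 3′ on the minus strand, from RefSeq on GRCm38.p6. Capitals mark the GC box GGGCGG and the motif CCAAT on either strand. The first lies at chr10:77166531-77166780 and the second, inside the gene, at chr10:77113706-77113955.
Col18a1 outer start: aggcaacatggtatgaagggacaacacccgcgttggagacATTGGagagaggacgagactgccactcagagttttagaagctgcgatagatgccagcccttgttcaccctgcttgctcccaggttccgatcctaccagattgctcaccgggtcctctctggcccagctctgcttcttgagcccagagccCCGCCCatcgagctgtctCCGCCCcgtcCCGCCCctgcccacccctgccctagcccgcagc
Col18a1 inner start: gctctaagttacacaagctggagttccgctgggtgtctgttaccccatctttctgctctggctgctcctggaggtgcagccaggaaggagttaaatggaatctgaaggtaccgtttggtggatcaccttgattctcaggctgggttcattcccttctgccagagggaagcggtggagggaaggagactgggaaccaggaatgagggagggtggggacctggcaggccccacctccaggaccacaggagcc

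The outer start had 3 GC boxes and 1 CCAAT in these 250 bases, and the inner start had neither, nor TATAAA. Which start the probe sets read was not examined. Col4a1 and Col4a2 are shown because their chains combine in 1 protein and their genes lie head to head on opposite strands. In RefSeq the 2 annotated starts span 22 bases, over which the transcripts overlap, from 11312805 to 11312826 on chromosome 8. The stretch shown, with flanking bases on each side, is chr8:11312801-11312830 on the plus strand of GRCm38.p6. Capitals mark the bases from the Col4a2 start to the Col4a1 start.
Col4a1 and Col4a2 starts: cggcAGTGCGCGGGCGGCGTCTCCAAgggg

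RefSeq windows of 300 bases (250 before and 50 after a start) were found for 27 of the 36 genes, 30 windows in all. On either strand GGGCGG occurred in 17 of the 30 (56.7%) and in 35.7% of all 32851 windows, CCAAT in 12 (40.0% and 37.4%) and TATAAA in 5 (16.7% and 13.6%). TATAAA was in 2 of 6 fibrillar windows, in 0 of 5 type IV windows and in 3 of 19 others. These matches describe letters and were not tested.

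Of the 9 fibrillar collagens limma called 0, and 1, Col5a2, passed at an unadjusted p under 0.05. Their median difference was 0.09 (all genes 0.10), with 5 of 9 above 0. Col1a1, which encodes the main chain of type I collagen, had signals of 1636, 3967, 1856, 2091, 1154 and 346 in tumours 1 to 6, against 3048, 2930 and 1979 in muscles 1 to 3. Its partner chain Col1a2 had 9062, 21068, 18012, 3006, 2145 and 2728 in the tumours, against 8799, 12907 and 14847 in the muscles. Col3a1, the type III chain that is laid down in the same fibrils, had 2999, 19240, 11451, 7971, 4303 and 3109 in tumours, against 11382, 13604 and 11823 in muscles. In these 3 genes tumour 2 lay above all muscles, while tumours 5 and 6 lay below them. The log2 differences were -0.81 ± 0.57 for Col1a1 (± SE; 95% interval -2.03 to 0.40), -0.92 ± 0.71 for Col1a2 (-2.44 to 0.59) and -0.93 ± 0.57 for Col3a1 (-2.14 to 0.29). These intervals hold both large falls and small rises, so the data do not show that type I and III levels were alike. Their second probe sets differed by -0.67, -1.76 and -1.30.

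Type V collagen, which sits within type I fibrils and limits their diameter, gave mixed values. Col5a2 had signals of 996, 10250, 4768, 7473, 2779 and 3014 in tumours, against 1219, 1848 and 1178 in muscles. All tumours except tumour 1 lay above the muscles, with a difference of 1.45 ± 0.58 (adjusted p = 0.109, limma). It was called without tumour 1 (1.83, adjusted p = 0.00706, limma), and not without any other 1 array (adjusted p of 0.124 to 0.309, limma). Its second probe set differed by -0.26. Col5a1 ranged from 887 to 3967 in tumours (median 1937) and from 1032 to 1715 in muscles. Its 3 probe sets differed by 0.42, -0.66 and -0.47, so that its direction depended on the probe set. Col5a3 differed by -0.11 ± 0.40.

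Of the remaining fibrillar chains only Col11a1 had a group mean above 268. Col11a1, a chain of the type XI collagen of cartilage fibrils, had 147 to 532 in tumours (median 280) and 103 to 250 in muscles. Col11a2 had 69.7 to 432 in tumours and 79.7 to 197 in muscles. Col2a1, the collagen of cartilage, had 20.8 to 77.2 in tumours and 16.6 to 56.0 in muscles. The levels of the chondrocyte markers Acan, Comp, Matn3 and Sox9 summed to 520 to 1080 in tumours and 544 to 595 in muscles, and none of the 4 was called (limma; 1, Sox9, at an unadjusted p under 0.05).

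In the basement membrane network, Col4a2 was the member with the most even difference. It had signals of 771, 1052, 1063, 1133, 565 and 629 in tumours, against 1541, 1808 and 1660 in muscles. Every tumour lay below every muscle, and the difference was -0.98 ± 0.33 (95% interval -1.67 to -0.28), just outside the threshold with an adjusted p of 0.0524 in limma. It passed without tumour 1 (0.0435), tumour 2 (0.0391) or tumour 4 (0.0461), as the limma adjusted p. Col4a1 had 3803, 3712, 5226, 2553, 2355 and 2084 in tumours, against 4280, 3437 and 3482 in muscles. Here tumours 1 and 2 lay within the muscle range, tumour 3 above and tumours 4 to 6 below it, and the difference was -0.25 ± 0.36. A second Col4a1 probe set differed by -0.54. Without rescaling the difference was -0.13 for Col4a2, and for Col4a1 it turned its sign to 0.61.

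The alpha3 to alpha6 chains of type IV collagen occur in a narrower set of basement membranes, such as that of the kidney glomerulus. Col4a3 had 28.4 to 361 in tumours and 172 to 197 in muscles. Col4a4 had 36.7 to 247 in tumours and 14.5 to 90.8 in muscles. Col4a5 had 137 to 314 in tumours and 132 to 237 in muscles. Col4a6 had 70.9 to 646 in tumours and 169 to 206 in muscles. All 4 overlapped between groups, and of them only Col4a6 had a group mean above 268. Of the 6 type IV chains limma called 0, and 1, Col4a2, passed at an unadjusted p under 0.05. Their median difference was 0.07, and it was also 0.07 when Col15a1 and Col18a1, the basement membrane zone collagens XV and XVIII, were counted with them.

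Endothelial and mural cells make type IV collagen in vessels, and some of their markers differed between tumours and muscles. The summed level of 7 endothelial markers was 852 to 2623 in tumours and 3239 to 3608 in muscles, and Tek was called lower. Of 7 mural markers Rgs5 was called lower, with mean signals of 739 ± 255 in the 6 tumours and 6175 ± 1430 in the 3 muscles (SD). The summed mural level was 3600 to 18576 in tumours and 11908 to 13123 in muscles. Their part in the type IV values was not tested.

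Type XVIII collagen rose. Col18a1 had signals of 835, 6870, 2095, 881, 2196 and 2499 in tumours, against 461, 489 and 447 in muscles. All 6 tumours lay above all muscles, with tumour 2 highest and tumours 1 and 4 lowest. The difference was 2.05 ± 0.54 (95% interval 0.88 to 3.21), with an adjusted p of 0.0179 in limma. A second probe set had 900 and 190 as tumour and muscle means and differed by 2.02 ± 0.41 (adjusted p = 0.00409, limma, over all probe sets). The call was lost without muscle 1 (0.0624), muscle 2 (0.064) or muscle 3 (0.0786) and with median centring (0.0716), as the limma adjusted p. It was also lost on tumours 1 to 3 and muscles 1 to 3 with no block (0.0568), and without muscles 2 and 3, where 1 muscle was left. The lowest limma adjusted p was 0.000371, without rescaling. Of 22 alternatives 16 kept the call, while the difference stayed between 1.69 and 2.86.

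Its closest relative, Col15a1 of type XV, which is found at the outer face of muscle and capillary basement membranes, did not share that rise. Col15a1 had 429, 418, 644, 206, 180 and 228 in tumours, against 814, 615 and 534 in muscles. Of the tumours only tumour 3 reached the muscle range, and the difference was -0.99 ± 0.43 (adjusted p = 0.14, limma).

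Type VI collagen forms beaded filaments around muscle fibres from 3 main chains, and in people mutations of its genes cause muscle disease. Col6a1 had 1448, 6011, 4103, 1937, 1351 and 2787 in tumours, against 2104, 1593 and 1704 in muscles. Col6a2 had 7840, 6739, 3722, 1096, 1324 and 1081 in tumours, against 3834, 3480 and 2217 in muscles. Col6a3 had 1022, 9323, 4731, 2848, 1737 and 1100 in tumours, against 2506, 4327 and 3671 in muscles. Tumour 2 was above the muscles for all 3 chains, and tumour 5 below them for all 3, while tumour 1 was highest for Col6a2 and lowest for Col6a3. The differences were 0.50 ± 0.46, -0.25 ± 0.63 and -0.44 ± 0.61, and the second probe set of Col6a2 differed by 0.48.

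Col22a1 was the only collagen called lower. It had signals of 34.7, 7.9, 47.7, 95.9, 75.1 and 20.3 in tumours, against 103, 232 and 207 in muscles. Every tumour lay below every muscle, but tumour 4 and muscle 1 lay close together and all values were below 268. The difference was -1.76 ± 0.53 (95% interval -2.89 to -0.63), with an adjusted p of 0.0324 in limma. At signals this low its size depended on the offset, with -2.22 for an offset of 1 and -1.15 for an offset of 64. A second probe set differed by -2.36 ± 0.47 (adjusted p = 0.00336, limma). The call was lost without rescaling (0.197) and without tumour 3 (0.05), tumour 6 (0.0663), muscle 2 (0.145) or muscle 3 (0.139), as the limma adjusted p. It was also lost with an offset of 1, with the replicate block and on tumours 1 to 3 and muscles 1 to 3 with no block. Without muscles 2 and 3, where 1 muscle was left, it was lost too. Of 21 alternatives 12 kept the call. Skeletal muscle markers also differed, and all 6 were called lower. Their summed level was 64837 in tumour 1, 1027 to 10337 in tumours 2 to 6 and 112238 to 156049 in muscles. Their part in the Col22a1 value was not tested.

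Of the membrane-spanning collagens, Col13a1, which in mice acts at the neuromuscular junction, had 483, 72.6, 89.1, 727, 275 and 290 in tumours, against 108, 15.9 and 50.1 in muscles. Tumours 2 and 3 lay below muscle 1 and the other tumours above all muscles, with a difference of 2.02 ± 0.68 (adjusted p = 0.0559, limma). It was called without tumour 2 (0.021) or tumour 3 (0.0373), and not without any other 1 array (0.0558 to 0.27), as the limma adjusted p. Col17a1, a collagen of the hemidesmosomes of skin, had 264, 23.6, 12.7, 194, 154 and 192 in tumours, against 17.1, 16.8 and 29.1 in muscles. Tumours 2 and 3 were again the low ones, and the difference was 1.66 ± 0.70 (adjusted p = 0.126, limma). Col17a1 was called without tumour 3 (0.0369), and not without any other 1 array (0.0518 to 0.296), as the limma adjusted p. Col25a1, the third of these genes, had 96.3 to 441 in tumours and 41.3 to 262 in muscles.

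Col16a1, which encodes a fibril-associated collagen, had 452, 426, 1082, 518, 505 and 541 in tumours, against 326, 190 and 318 in muscles. Its groups did not overlap, and the difference was 1.00 ± 0.38 (adjusted p = 0.0876, limma). Among other fibril-associated chains Col14a1 differed by -0.35 ± 0.43 and Col12a1 by 0.29 ± 0.73. Col9a1, Col9a2 and Col9a3 of cartilage differed by 0.53 ± 0.45, 0.26 ± 0.42 and 0.03 ± 0.38, and Col19a1 and Col20a1 by 0.17 ± 0.60 and 0.48 ± 0.49. Col7a1, the anchoring fibril collagen of skin, differed by -0.36 ± 0.41, Col8a1, a chain of a network collagen of vessels and cornea, by 1.04 ± 0.58, Col10a1 of growth plate cartilage by 0.35 ± 0.48 and Col26a1 by -0.36 ± 0.59. For the 21 collagens that are neither fibrillar nor type IV the median difference was 0.29, with 14 above 0.

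Ratios within an array ask whether 2 collagen genes changed unequally, free of the array's overall scale. For 10 pairs an exact two-sided permutation test compared the log2 ratio between 6 tumours and 3 muscles over all 84 splits, with a smallest possible p of 0.0238. Col18a1 over Col4a1 had mean log2 ratios of -0.66 ± 1.18 in the 6 tumours and -2.95 ± 0.20 in the 3 muscles (SD), and every tumour was above every muscle (exact p = 0.0238, adjusted over the pairs 0.0793). Col15a1 over Col4a1 went the other way, with -3.24 ± 0.26 in tumours and -2.50 ± 0.15 in muscles and no overlap (exact p = 0.0238, adjusted 0.0793). A second Col4a1 probe set read 335 on tumour 1 and 1744 on muscle 1, where Col15a1 read 429 and 814. With that probe set the groups would overlap. Col6a1 over Col1a1 was 0.77 ± 1.17 in tumours and -0.54 ± 0.33 in muscles, also without overlap (exact p = 0.0238, adjusted 0.0793). The second Col1a1 probe set read 1399 on tumour 1 and 574 on muscle 1, where Col6a1 read 1448 and 2104. With that Col1a1 probe set these groups would overlap too. Col5a2 over Col1a1 differed by 2.26 and Col4a2 over Col4a1 by -0.73, with tumour 1 among the muscles in the first pair and tumour 4 in the second (exact p = 0.0476, adjusted 0.0952 for each). The second probe sets of Col5a2 and Col1a1 differed by -0.26 and -0.67. No ratio was tested with other probe sets. Chains of 1 protein, Col1a1 over Col1a2, differed by 0.11, and Col3a1 over Col1a1 by -0.11 (exact p = 0.929 and 0.929). The tumour ratio of Col1a1 to Col1a2 nonetheless ran from -3.27 to -0.52. At an unadjusted p under 0.05 5 of the 10 pairs passed, and after adjustment none did. With so few splits an adjusted call needed several pairs at or near 0.0238, so the lack of calls does not show equal ratios.

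**Figure D3:**
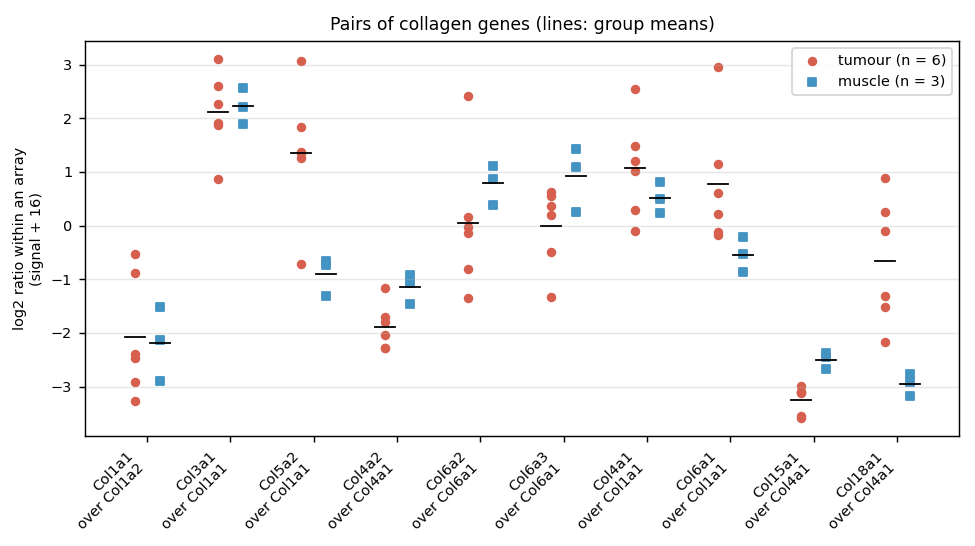
Log2 ratio of signal + 16 of 2 collagen genes within each array, 6 tumours (circles) left of 3 muscles (squares) for each of 10 pairs, with lines at group means. Only Col6a1 over Col1a1, Col15a1 over Col4a1 and Col18a1 over Col4a1 show no overlap. The muscle points lie closer together than the tumour points in all 10 pairs, but 3 points tend to span less than 6 by their number alone.

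Tumours also differed among themselves. Across the 36 collagens the highest tumour signal was a median of 6.3 times the lowest, and across all genes 4.46 times. The median log2 difference of Col1a1, Col1a2 and Col3a1 from the muscle mean was -0.67, 0.65, -0.10, -0.62, -1.50 and -2.12 in tumours 1 to 6. For the 3 type VI chains it was -0.30, 1.44, 0.47, -0.26, -0.97 and -1.50. Tumour 2 was the highest and tumour 6 the lowest in both sets. Over all 36, tumour 1 was highest for 13 (36.1%), close to its 37.6% of all genes, and tumour 2 for 8 (22.2%, against 12.9% of all genes). Tumour 2 was also lowest for 11 (30.6%, against 39.2% of all genes), and tumour 5 for 10 (27.8%, against 9.52%). The median scaled signal of all probe sets was highest on tumour 1 (275.8) and lowest on tumour 2 (144.4), so ranks of dim genes may follow the array. Among the 21 brighter collagens tumour 1 was highest for 3 and tumour 2 for 8, and each was lowest for 4. The matching share over all genes that bright was not computed.

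Fibroblast markers are given beside these values. The summed level of 9 markers was 6185, 28164, 14146, 5922, 7260 and 5334 in tumours 1 to 6, against 14163, 11689 and 12394 in muscles 1 to 3. Only tumour 2 exceeded the muscles in that sum, and tumour 3 was just within their range. On tumour 2 Dcn (12200) and Postn (10430) made up most of the sum, and single markers ranked the tumours differently. Dcn, Lum, Dpt and Postn were highest on tumour 2, Pdgfrb and Fap on tumour 3, Thy1 and Pi16 on tumour 1 and Pdgfra on tumour 6. Of the 9 markers 3 differences were above 0 and 6 below, and Lum and Dpt were called lower and none higher. Pdgfra, Postn and Fap differed by 1.04 ± 0.92, 1.31 ± 0.72 and 0.49 ± 0.61. Dcn, the gene of the fibril-binding proteoglycan decorin, had 1519, 12200, 7560, 399, 781 and 344 in tumours, against 5757, 6288 and 6858 in muscles. The part of fibroblast content in the collagen values was not tested.

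**Figure D4:**
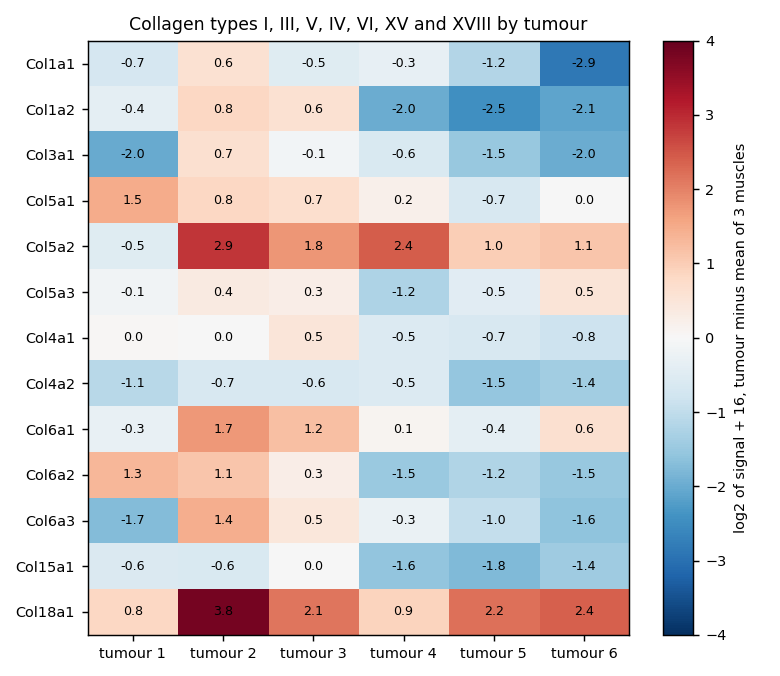
Log2 of signal + 16 in each tumour minus the mean of 3 muscles for 13 chains of types I, III, V, IV, VI, XV and XVIII, on a colour scale from -4 to 4 with values printed. Col18a1 is above 0 and Col4a2 below 0 in all 6 tumours, while types I, III and VI range from above 0 in tumour 2 to mostly below 0 in tumours 5 and 6.

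Several genes that act on collagen chains inside the cell rose. Of 17 measured genes of modification and folding 5 were higher (29.4%) and 1 lower (5.88%), with a median difference of 0.52. Of all genes 8.66% were higher and 9.09% lower. Among genes with a group mean above 268 these shares were 12.9% and 14.3%. Ppib, the cyclophilin of the procollagen prolyl hydroxylation complex, averaged 5816 ± 1641 in the 6 tumours and 1303 ± 738 in the 3 muscles (SD), a difference of 2.23 ± 0.39 (adjusted p = 0.00136, limma). Crtap, another subunit of that complex, differed by 1.67 ± 0.41 (0.0123), but its enzyme subunit gene P3h1 was not called. Plod2 and Plod3, lysyl hydroxylases that prepare collagen for crosslinks and sugars, differed by 2.39 ± 0.53 and 1.86 ± 0.39 (adjusted p = 0.00686 and 0.00433, limma). Plod2 had 660, 3253, 1236, 597, 574 and 476 in tumours, against 182, 182 and 109 in muscles. Pdia3, a general folding enzyme of the endoplasmic reticulum, differed by 1.61 ± 0.42, and Mia3, which helps to export procollagen, by -1.41 ± 0.40. Serpinh1, the collagen chaperone, and P4ha1, a prolyl hydroxylase subunit, differed by 0.35 ± 0.55 and 0.11 ± 0.47 and were not called. The Plod2 call was lost without muscle 3 (0.0511), that of Crtap without muscle 1 (0.0717) or muscle 3 (0.0786) and with median centring (0.0544), those of Pdia3 and Mia3 when any 1 muscle was left out (0.0508 to 0.0797 and 0.076 to 0.134), and that of Mia3 also without tumour 3 (0.0519) or tumour 5 (0.0553).

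None of the 10 measured genes of propeptide processing and crosslinking was called by limma, although 8 differences were above 0 and 2 passed at an unadjusted p under 0.05. Lox, the main crosslinking oxidase, had 827, 5806, 2456, 591, 671 and 605 in tumours, against 483, 605 and 758 in muscles. Tumours 1 to 3 exceeded all muscles and the others lay among them, with a difference of 0.96 ± 0.64. Bmp1, the protease that trims procollagen, differed by 0.87 ± 0.71. It was called without tumour 1 (1.43, adjusted p = 0.0213, limma), where Bmp1 read 41.7 (268 to 788 on tumours 2 to 6), while the mean of its 3 probe sets differed by -0.05. Of 22 alternatives 2 called Bmp1.

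Of 17 genes of fibril assembly and turnover 4 were higher (23.5%) and 4 lower (23.5%), against 8.66% and 9.09% of all genes. Among genes with a group mean above 268 the shares were 12.9% and 14.3%. The higher ones encode matrix proteases and an inhibitor of them. Timp1, an inhibitor of metalloproteinases, averaged 3075 ± 1055 in the 6 tumours and 135 ± 93.6 in the 3 muscles (SD) and was higher by 4.50 ± 0.44 (adjusted p = 2.24e-05, limma). The Timp1 signals of muscle were below 268 and may be background, and the difference ran from 3.57 to 5.22 over the alternatives. The collagenases Mmp13 and Mmp14 were higher by 3.17 ± 0.67 and 1.63 ± 0.33, and the gelatinase gene Mmp9 by 1.52 ± 0.37. The Mmp13 signals of muscle, 7.22 to 21.5, may be background, and its difference ran from 2.12 to 4.05 over the alternatives. The mean of the 2 probe sets of Mmp14 was not called (1.16, adjusted p = 0.187, limma), and Mmp9 was lost without muscle 1 (0.0558) or muscle 3 (0.0661). The lower ones bind collagen fibrils: Dpt (dermatopontin) at -2.32 ± 0.48, Tnxb (tenascin-X) at -2.04 ± 0.66, Lum (lumican) at -1.83 ± 0.54 and Fmod (fibromodulin) at -2.77 ± 0.81. Dpt and Lum are the same values as the fibroblast markers called lower above, and the part of fibroblast content in them was not tested. When any 1 muscle was left out Tnxb, Lum and Fmod were not called, with adjusted p of 0.104 to 0.167, 0.0644 to 0.124 and 0.0636 to 0.166 (limma), and without some of the tumours, at 0.0513 to 0.0855, 0.0517 to 0.0553 and 0.0524 to 0.0546. Without rescaling Dpt (0.0616), Lum (0.227), Tnxb (0.173) and, of the folding list, Mia3 (0.448) were not called. Sparc, a collagen-binding matricellular protein, differed by 0.28 ± 0.41.

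Among 5 measured collagen receptors Ddr2, a receptor tyrosine kinase for fibrillar collagen, was higher at 2.24 ± 0.39 (adjusted p = 0.00136, limma), with 759 to 2426 in tumours and 168 to 258 in muscles. Lair1, an inhibitory collagen receptor of leukocytes, was higher at 1.22 ± 0.38 (0.0402), and was not called without any 1 of the muscles (0.0965 to 0.2) or without tumour 3, 4 or 5 (0.0644 to 0.0804), nor without tumours 1 and 4 (0.0516). All 5 macrophage markers were called higher, with summed levels of 6813 to 31329 in tumours and 2089 to 2954 in muscles, and their part in the Mmp and Lair1 values was not tested. Across the 4 lists 11 of 49 genes were higher (22.4%) and 5 lower (10.2%), against 8.66% and 9.09% of all genes. Of the 49, 42 had a group mean above 268, and of all genes that bright 12.9% were higher and 14.3% lower. Higher genes numbered 6 without muscle 3 and 7 without muscle 1 (503 and 719 of all genes), and 19 without rescaling (2373 of all genes).

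**Figure D5:**
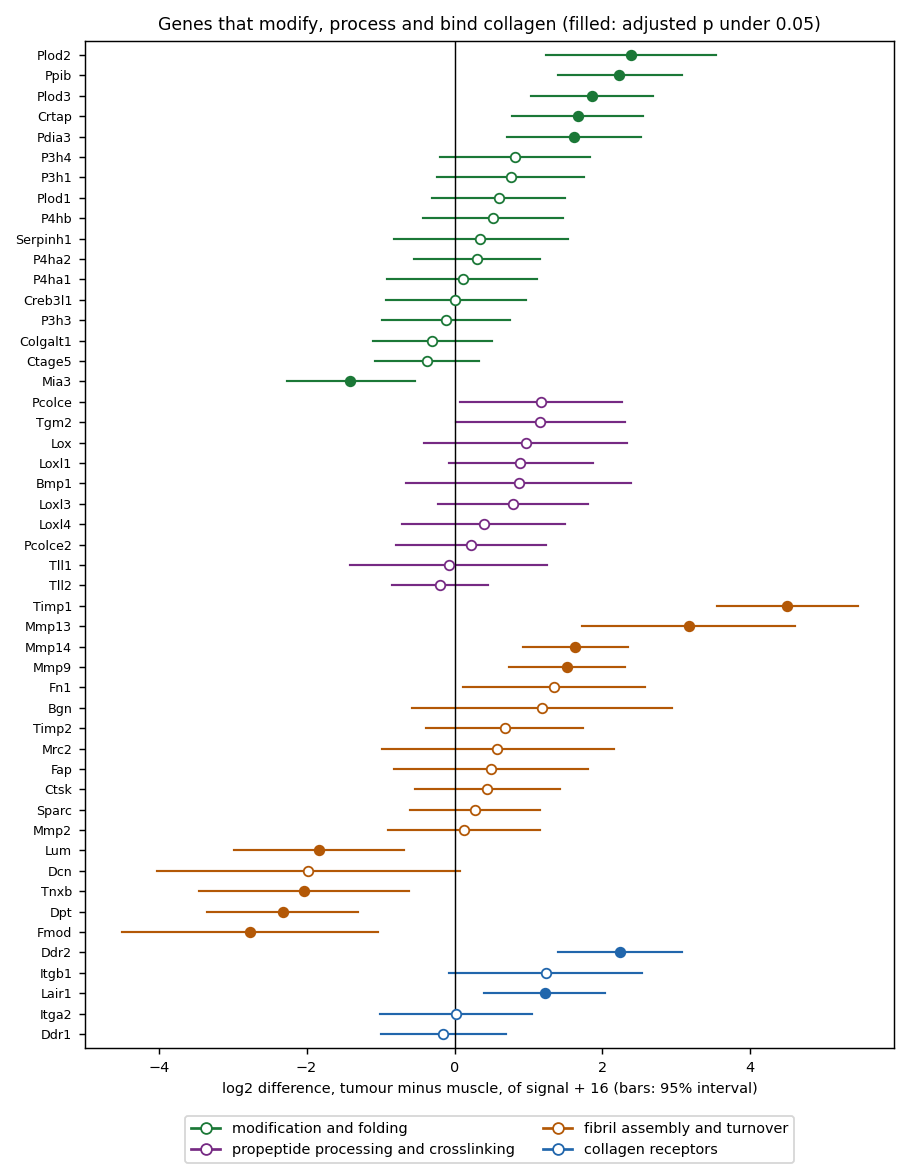
Log2 difference of signal + 16, tumour minus muscle, with 95% intervals for 49 genes that modify, process, assemble or bind collagen. Filled points passed an adjusted p under 0.05, 11 above 0 and 5 below 0, and Timp1 is farthest from 0 at 4.50.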

How the data were processed

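The intensities used are the authors' deposited MAS5 signals, on a linear scale; the submitters' processing notes name MAS5 with no version. Scaling target and filters are not stated in them. On 7 of 9 arrays the trimmed mean (2% off each end) was alike at 500.2, while muscle 1 had 294.3 and muscle 3 had 140.9; each array was therefore scaled to the median of the 9 trimmed means. This choice and the members and gene lists were made with earlier results of these data known. Of 22690 probe sets 20380 had 1 gene symbol, 691 had several and 1555 none, besides 64 control probe sets, and only those with 1 symbol were used. Tests ran on log2(signal + 16) over all 12393 genes with limma 3.58.1 in R 4.3.3 (lmFit, eBayes with trend, Benjamini-Hochberg, threshold 0.05), and summaries used Python 3.11.15. The number of arrays limits the precision. All collagens may be named, with array values for types I, III, IV, V, VI, XV, XVIII and called ones; Col13a1, Col16a1 and Col17a1 were added after their values were seen. From each companion list the text takes up to 5 called genes by size plus Lox, P4ha1, Plod2, Serpinh1, Bmp1 and Sparc. Mia3, P3h1, Pdgfra, Pdgfrb, Thy1, Pi16, Postn, Fap, Lum, Mmp9, Mmp14, Dcn, Tek, Rgs5 and Sox9 were added after their values were seen. In the labels tumours 1 to 3 and muscles 1 to 3 share only numbers. Alternatives tried were no rescaling, median centring, quantile normalization, other offsets (1 and 64), a filter on dim genes, other uses of probe sets, no trend, a replicate block and leaving out arrays.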

Additional observations from a re-analysis of the deposited data

Results flagged for a closer look

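In 2 of 67 genes and ratios looked at, 1 tumour stood apart from the other 5 by more than Dixon's 95% limit for 6 samples, on the log2 scale; chance gives about 1 in 20. Col9a2, a cartilage collagen chain, had a signal of 64.4 on tumour 1, next to 10.6 or less on the other tumours and 5.54 to 10.1 on the muscles, all far below the median signal of 268. Col16a1 had 1082 on tumour 3, next to 426 to 541 on the other tumours and 190 to 326 on the muscles.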

How the results depend on the processing

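Collagens called higher numbered 7 without rescaling, 2 with quantile normalization, without dim genes, with the replicate block and without tumours 1 and 4, and 0 without muscles 2 and 3 and on tumours 1 to 3 and muscles 1 to 3 with no block (the last chosen after seeing the data). Those called lower numbered 0 without rescaling, with an offset of 1, with the replicate block, on those 6 arrays with no block and without muscles 2 and 3, and 2 with the mean of probe sets and without tumours 1 and 4. Leaving out 1 array gave 0 to 3 higher and 0 to 2 lower. Over all genes higher calls numbered 2373 without rescaling, 641 with the block, 454 on the same arrays with no block and 73 without muscles 2 and 3 (503 to 1421 without 1 array), and lower calls 369, 826, 635 and 100 (607 to 1348). Companion genes called higher numbered 19 without rescaling, 6 on the 6 arrays and 1 without muscles 2 and 3 (6 to 13 without 1 array). Those lower numbered 1 without rescaling, 3 with quantile normalization, 2 for each probe set, 2 with the block, 1 on the 6 arrays and 0 without muscles 2 and 3 (1 to 6 without 1 array). Fewer arrays leave less precision; the cause of the other changes was not tested. The median differences of fibrillar, type IV and other collagens were 0.72, 0.81 and 0.80 without rescaling and -0.46, -0.61 and -0.30 without dim genes, and that of the others was -0.09 without tumours 1 and 4 and 0.00 without muscles 2 and 3 (-0.13 to 0.26, -0.17 to 0.34 and -0.05 to 0.44 without 1 array). With the replicate block the companions Fmod, Lair1, Lum, Mia3, Mmp9 and Pdia3 were not called. Deviations from the group mean correlated weakly between same-numbered arrays (r = 0.228, 0.177 and -0.018 for numbers 1, 2 and 3). For tumours 1 and 2, but not 3, the same-numbered muscle was the best match of the 3. Whether these arrays are paired cannot be told from this. Of the 36 collagens 24 changed sign under some alternative, and 0 of these were called in any setting; 9 were called in at least 1 alternative. The 10 ratios were not called under any alternative tried, and no alternative changed their probe sets. With any 1 muscle or more than 1 array left out, the smallest possible exact p exceeds 0.05, so no call could be made there. In the other settings a call needed several pairs at or near the smallest p. Signals near background limit the dim collagens.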
